A study of Mus musculus with 4 samples.

Results

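The 10 genes described here, best known from neutrophils and inflammatory monocytes, were followed in mouse liver 24 h after lipopolysaccharide (LPS). They are *S100a8*, *S100a9*, *Ngp*, *Lcn2*, *Chil3*, *Slpi*, *Ly6c2*, *Camp*, *Ltf* and *Ms4a4a*. The genes were taken by symbol from the 4 deposited tables, without regard to letter case. Of the 10, 8 are listed in at least 1 table, among 3113 symbols listed in any of them, and *Camp* and *Ltf* are in none. The liver of male mice aged 16 to 20 weeks was sequenced in 4 groups: WT control, WT LPS, CypD-/- control and CypD-/- LPS. WT mice were C57BL/6, CypD-/- mice of the same background lacked *Ppif*, the gene of the mitochondrial matrix protein cyclophilin D (CypD), and controls received PBS in place of 40 mg/kg LPS. The RNA of 3 mice was pooled into 1 library for each group according to the labels, whereas the figure legends of the study give an n of 5. No fold below therefore has a biological error, and no test between groups was possible. *Ppif* itself is listed 2.72-fold lower in CypD-/- control than in WT control mice (q-value 0.00254), and is not listed between the LPS groups. It is also listed as lower in WT LPS than in WT control mice (q-value 0.00615). The paper reports, from its read alignment of *Ppif* in WT and CypD-/- mice, a deletion of exons of this gene.

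A neutrophil carries its weapons ready-made. The calcium-binding proteins S100A8 and S100A9 pair in its cytosol to form calprotectin, which withholds zinc and manganese from microbes and signals through Toll-like receptor 4. Specific granules store lactoferrin (*Ltf*), cathelicidin (*Camp*), the related neutrophilic granule protein (*Ngp*) and lipocalin-2 (*Lcn2*), which captures the iron carriers of bacteria. *Slpi* encodes an inhibitor of neutrophil elastase, and *Chil3* the chitinase-like protein Ym1 of mouse macrophages and neutrophils. *Ly6c2* encodes a surface protein that is abundant on mouse inflammatory monocytes, and *Ms4a4a* a membrane protein of the macrophage lineage. Several of these genes are not confined to leukocytes: hepatocytes produce lipocalin-2 as an acute phase protein, and epithelia produce SLPI.

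In LPS-treated WT mice, 7 of the 10 genes are listed as higher than in WT control mice and none as lower. A table holds only genes that passed the authors' limits of 1.5-fold and a q-value of 0.05, and a gene outside it has no value here. Of the 3113 symbols in any table, 29.2% are listed as higher in this comparison. The number of genes tested is not known, so this share is of listed symbols only. Within CypD-/- mice, 7 of the 10 are again listed as higher after LPS and none as lower, against 14.4% of all symbols. The genotypes share 6 of these genes, *S100a8*, *S100a9*, *Ngp*, *Lcn2*, *Chil3* and *Slpi*. *Ms4a4a* is listed in WT mice without *Ly6c2*, and *Ly6c2* in CypD-/- mice without *Ms4a4a*. Neither is listed between the LPS groups or between the control groups. Whether the genotypes differ in the response of these genes was not tested. In whole liver RNA, more cells of a type and more RNA per cell cannot be told apart.

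**Figure D1:**
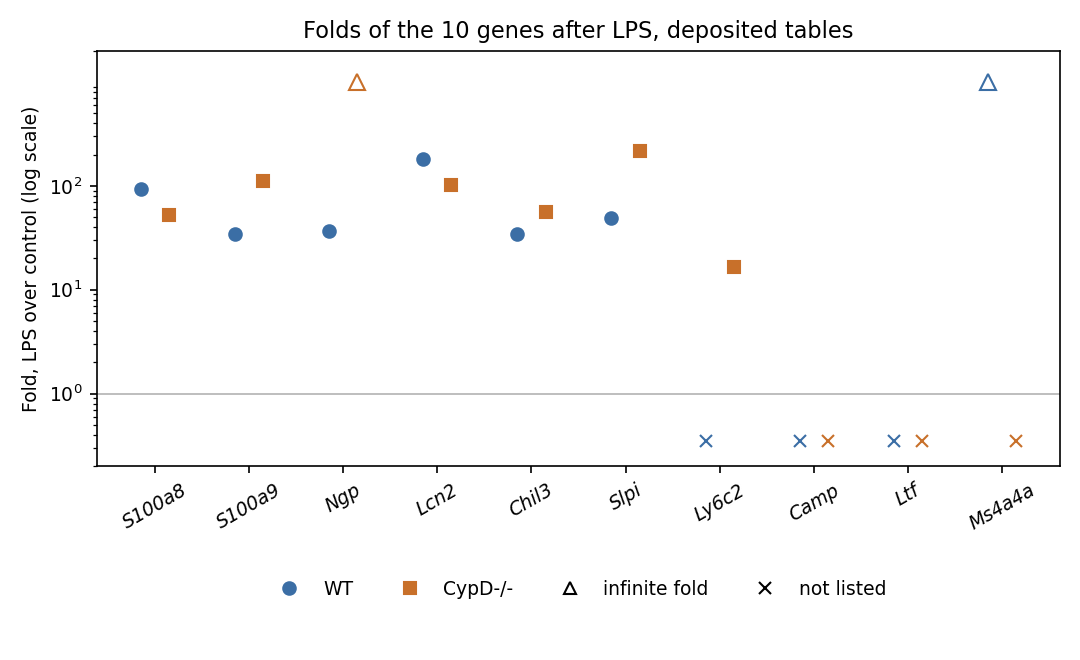
Fold of each of the 10 genes in LPS over control libraries (log scale), as deposited, in WT (circles) and CypD-/- mice (squares). Triangles are infinite folds and crosses genes that are not listed. Every finite fold lies between 16.6 and 217.

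Both calprotectin genes are listed as higher after LPS in both genotypes. *S100a8* was listed 94.0-fold higher after LPS in WT and 52.7-fold higher in CypD-/- mice, with q-values written as 0 in both tables. *S100a9* stood 34.4-fold higher after LPS in WT and 110-fold higher within CypD-/- mice, also with q-values of 0. The larger fold was that of *S100a8* in WT and that of *S100a9* in CypD-/- mice, and none of these folds has an error that would show whether the genes differed. The CypD-/- fold was 0.561 times the WT fold for *S100a8* and 3.21 times for *S100a9*. Neither gene is listed between the LPS groups or between the control groups. By size of fold, *S100a8* ranked 21st of the 910 genes listed as higher in WT and 34th of 448 in CypD-/- mice, and *S100a9* 65th and 18th. In these ranks, infinite rises stand above all finite ones. The genes lie 22.6 kb apart on chromosome 3 of GRCm38, *S100a8* at 90668978 to 90670035 on the forward strand and *S100a9* at 90692632 to 90695721 on the reverse strand, each with 3 exons.

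Among the specific granule genes, *Lcn2* had the largest fold in WT mice and *Ngp* was without reads in 1 control library. *Lcn2* was listed 179-fold higher after LPS in WT mice and 101-fold higher in CypD-/- mice (q-values of 0). It ranked 10th of 910 and 20th of 448, with infinite rises placed first. *Ngp* was listed 36.9-fold higher in WT mice (q-value 2.07e-06). Within CypD-/- mice the fold of *Ngp* is infinite (q-value 1.09e-05), which means that the control library held no reads of it. Such a fold has no size, and *Ngp* is 1 of 6 genes with an infinite fold in that table. *Camp* and *Ltf*, which encode the best known contents of the same granules, are listed in no comparison. *Camp*, *Ngp* and *Ltf* all lie on chromosome 9, within a stretch where *Camp* and *Ltf* are 1169.65 kb apart.

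The remaining secreted proteins were listed with folds of the same order. *Slpi* was 48.9-fold higher in WT (q-value 0) and 217-fold higher in CypD-/- mice (q-value 1.17e-10). The latter ranked 10th of 448, with infinite rises placed first. *Chil3* was 34.6-fold higher in WT (q-value 0.00233) and 55.8-fold higher in CypD-/- mice (q-value 0.00018). The surface proteins stood closer to the q-value limit of 0.05. *Ly6c2* was listed 16.6-fold higher in CypD-/- mice (q-value 0.0281). *Ms4a4a* had an infinite fold in WT mice (q-value 0.043), where 8 genes have an infinite fold in either direction. *Chil3* and *Ly6c2* have close relatives that a read can also match. The whole *Chil3* transcript of 1539 bases aligns with *Chil4* at 94.3% identity, and the whole *Ly6c2* transcript of 822 bases with *Ly6c1* at 97.6%. The authors' mapping accepted reads at 80% similarity and up to 10 matching positions, so the values of these 2 genes are uncertain. *Chil4* and *Ly6c1* are listed in no table.

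Between the LPS groups, the deposited table lists *Lcn2* and *Slpi*, both lower in CypD-/- than in WT mice. *Lcn2* was 2.21-fold lower (q-value 0) and *Slpi* 2.49-fold lower (q-value 1.08e-06). Of all symbols, 11.8% are listed as lower in this comparison, and these 2 of 10 genes are to be read against that share. The other 8 genes have no value there, and none of the 10 is listed as higher. Between the control groups none of the 10 is listed in either direction, where 7.87% of all symbols are listed. All folds of this comparison come from the authors' test of 1 pooled library against another.

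Multiplying the listed folds places *Lcn2* and *Slpi* in all 4 libraries, with the WT control set to 1. *Lcn2* was at 179 in WT LPS, at 81.1 in CypD-/- LPS and at 0.802 in CypD-/- control mice. *Slpi* was at 48.9 in WT LPS, at 19.6 in CypD-/- LPS and at 0.0903 in CypD-/- control mice. The LPS libraries were thus ordered alike for both genes, with WT above CypD-/-. The control libraries lay close together for *Lcn2* and far apart for *Slpi*, which came out 11.1-fold lower in CypD-/- control than in WT control mice. The table of the control groups lists neither gene. The larger fold of *Slpi* within CypD-/- mice therefore went with a lower level after LPS and a much lower level in the control library. For *S100a8*, *S100a9* and *Chil3* the direct comparisons give no value, so only the WT LPS level could be derived.

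**Figure D2:**
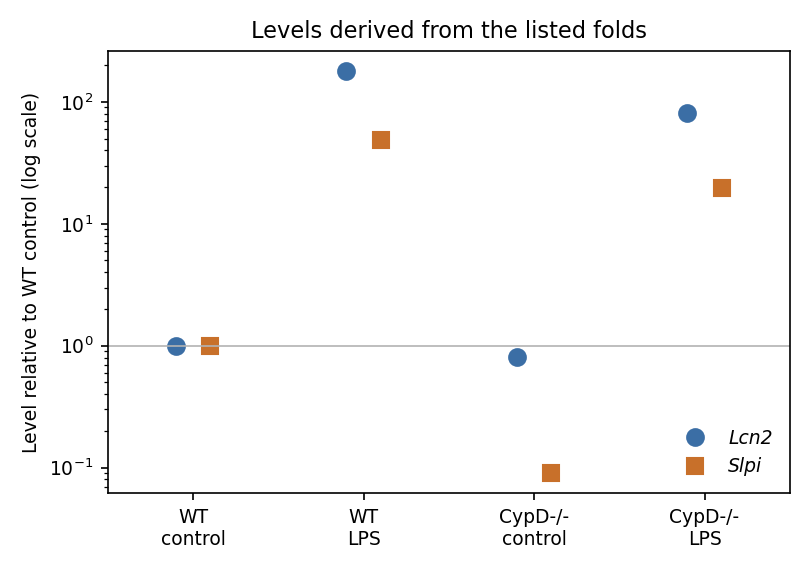
Levels of *Lcn2* (circles) and *Slpi* (squares) in the 4 libraries relative to the WT control library (log scale), derived as products of the deposited folds, 1 pooled library per point. The CypD-/- control library lies at 0.802 for *Lcn2* and at 0.0903 for *Slpi*. The authors' comparison of the control groups lists neither gene.

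The depth of the libraries is unknown, so no counting interval stands beside these folds. Folds of this size, their ranks and their ratios between genotypes may rest on few reads in the control libraries. The deposited values do not give those read numbers. In the CypD-/- table *Slpi* and *Cxcl1* share the fold 217.116, and in the WT table *Chil3* and *Il20rb* share 34.572.

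Across the 5 genes with finite folds in both genotypes, the fold was larger in CypD-/- mice for 3, *S100a9*, *Chil3* and *Slpi*, and larger in WT mice for *S100a8* and *Lcn2*. The median ratio of the CypD-/- to the WT fold was 1.61 over these 5 genes. Over the 356 genes with finite folds that are listed as higher in both genotypes, the median ratio was 0.812 and 30.9% had the larger fold in CypD-/- mice. Among the 85 of them at 10-fold or more in both, the median was 0.867 and 40% had the larger fold in CypD-/- mice. With 5 genes and no error on any fold, this contrast is a description only.

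**Figure D3:**
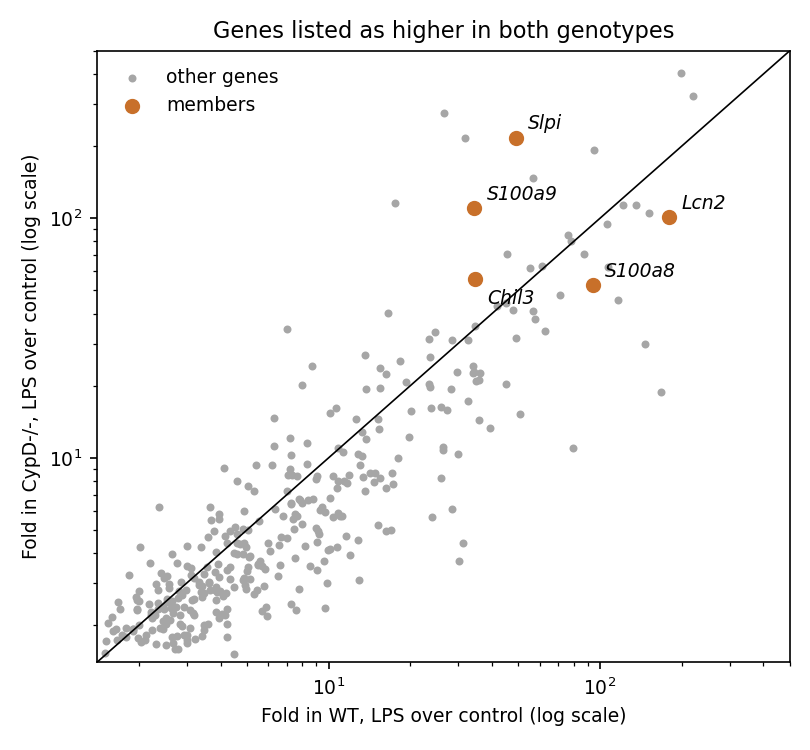
Fold after LPS in WT (x axis) against CypD-/- mice (y axis) for the 356 genes listed as higher in both with finite folds (both axes log scale), with the line of equal folds. *S100a9*, *Chil3* and *Slpi* lie above the line, and *S100a8* and *Lcn2* below it.

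Promoter sequences of the pairs that share a function or a pattern are shown, the calprotectin genes and the 2 genes listed between the LPS groups. Each runs from 250 bases before to 50 bases after the RefSeq start on GRCm38.p6, 5′ to 3′ on the strand of the gene. RefSeq starts can differ from the GENCODE gene bounds. In GENCODE the reverse-strand genes *Slpi* and *Lcn2* begin at 164389095 and 32388252, outside their windows here. Positions of matches hold for the RefSeq starts only. Capitals mark matches on either strand to TTGCNNAA, the core bound by C/EBP factors of myeloid cells and hepatocytes, or to TATAAA, the letters of a TATA box. *S100a8* is at chr3:90668821-90669120 (forward), *S100a9* at chr3:90695672-90695971 (reverse), *Lcn2* at chr2:32387690-32387989 (reverse) and *Slpi* at chr2:164356458-164356757 (reverse).
S100a8: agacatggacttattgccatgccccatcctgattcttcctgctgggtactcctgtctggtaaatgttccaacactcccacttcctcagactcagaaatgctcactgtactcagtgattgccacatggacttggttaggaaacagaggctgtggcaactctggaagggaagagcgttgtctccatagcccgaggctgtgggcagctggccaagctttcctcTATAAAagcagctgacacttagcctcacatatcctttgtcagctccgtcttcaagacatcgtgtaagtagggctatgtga
S100a9: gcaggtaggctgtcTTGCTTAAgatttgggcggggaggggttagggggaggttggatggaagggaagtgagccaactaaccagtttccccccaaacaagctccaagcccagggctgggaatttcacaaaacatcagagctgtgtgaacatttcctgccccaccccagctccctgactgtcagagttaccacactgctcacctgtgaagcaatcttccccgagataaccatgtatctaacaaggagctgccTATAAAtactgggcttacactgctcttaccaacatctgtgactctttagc
Lcn2: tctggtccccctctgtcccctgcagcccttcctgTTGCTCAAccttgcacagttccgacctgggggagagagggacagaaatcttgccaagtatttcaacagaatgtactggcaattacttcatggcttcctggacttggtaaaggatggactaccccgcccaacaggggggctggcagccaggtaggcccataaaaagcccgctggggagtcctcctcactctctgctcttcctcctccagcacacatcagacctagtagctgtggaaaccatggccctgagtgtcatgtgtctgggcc
Slpi: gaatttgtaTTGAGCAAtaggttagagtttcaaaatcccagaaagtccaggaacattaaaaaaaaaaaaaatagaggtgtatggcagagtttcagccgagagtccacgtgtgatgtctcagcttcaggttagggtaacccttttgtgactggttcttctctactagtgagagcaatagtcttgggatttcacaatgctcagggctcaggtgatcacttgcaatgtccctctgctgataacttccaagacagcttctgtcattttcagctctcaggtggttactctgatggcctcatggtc

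All 10 genes have a RefSeq promoter, and 5 of them, *S100a9*, *Ngp*, *Lcn2*, *Slpi* and *Ltf*, hold TTGCNNAA, which is present in 10.8% of all 32851 promoters of the same length. It begins at position -236 in *S100a9*, -216 in *Lcn2* and -241 in *Slpi*, and at -138 and -11 in *Ngp*. TATAAA was found in *S100a8* (beginning at -30), *Chil3* (at -3) and *S100a9* (at position 1, the start itself), against 13.6% of all promoters. The NF-kB consensus was found in *Camp* and *Ms4a4a* (8.46% of all promoters), and TTCNNNGAA, the element of STAT factors, in *Chil3* alone of the 10 (8.3%). No match overlapped another in these windows. The genes that hold TTGCNNAA include *Ltf*, which is not listed, as well as *Slpi*, which is. A match describes the letters only.

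Whether other genes of the same cells were listed was then asked. Of all 3113 symbols, 29.2% are listed as higher after LPS in WT and 14.4% in CypD-/- mice, and 62.1% and 32.1% as lower. These shares stand beside every list of related genes. Each list also holds genes in no table, so its counts have another base than these shares. Some genes stand in several lists and are counted in each. Of 34 further granule and antimicrobial genes, 2 are listed as higher and 2 as lower after LPS in WT mice, 2 as higher in CypD-/- mice, and 30 are in no table. Those listed as higher are *Hp* (haptoglobin, with folds of 6.29 in WT and 11.2 in CypD-/- mice) and *Lrg1* (12.9- and 10.4-fold), both of which hepatocytes also secrete as acute phase proteins. *Hp* is also listed 1.92-fold lower in CypD-/- control than in WT control mice, and neither gene is listed between the LPS groups. The lysozyme genes *Lyz1* and *Lyz2* are listed 4.27- and 4.57-fold lower in WT mice, and *Lyz2* 1.81-fold lower in CypD-/- control than in WT control mice. *Mpo*, *Elane*, *Prtn3* and *Ctsg*, the azurophil granule genes that neutrophil precursors transcribe, are not listed, nor are the gelatinase and collagenase genes *Mmp9* and *Mmp8*. Among 34 neutrophil surface receptors, 2 are listed as higher in WT and 3 in CypD-/- mice. *Il1r2*, the decoy receptor of interleukin-1, has an infinite fold in WT and a fold of 56.2 in CypD-/- mice. *Lilrb4*, an inhibitory receptor, is listed 4.15-fold higher in WT mice, and *Itgam*, the integrin subunit CD11b, 15.9-fold and *Fcer1g* 3.17-fold higher in CypD-/- mice. *Ly6g*, *Cxcr2*, *Csf3r* and *Fpr1* are among the 30 of these 34 receptors that are in no table.

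Of 31 genes of inflammatory monocytes other than the 10, 6 are listed as higher after LPS in each genotype and 2 as lower in WT mice. Some of these were already counted above. They are *Hp*, higher in both genotypes, *Itgam*, higher in CypD-/- mice, and *Lyz2*, lower in WT mice. *Cd14*, the LPS coreceptor, had the largest folds, 135 in WT and 113 within CypD-/- mice. It is listed 2.11-fold lower in CypD-/- LPS than in WT LPS mice. *Thbs1* (thrombospondin-1) was 12.6- and 14.6-fold and *Plac8* 3.84- and 2.54-fold higher, and *Csf1r*, the receptor of colony-stimulating factor 1, 7.52-fold lower in WT mice. *Ccr2*, the chemokine receptor that defines these monocytes, is not listed. Among 10 general leukocyte markers, such as *Ptprc*, none is listed in any table, nor is any of the 9 T cell, 7 B cell, 7 NK cell and 5 platelet markers. Of 12 Kupffer cell markers, 8 are listed as lower after LPS in WT mice, *Slc40a1* by 16.8-fold, while 2 are lower and 1 is higher in CypD-/- mice. The higher one is *Marco* (4.84-fold). In CypD-/- control mice, *Marco* is listed 7.44-fold and *Cd5l* 1.72-fold lower than in WT control mice. Between the LPS groups, *Cd5l* (4.71-fold) and *Slc40a1* (5.11-fold) are higher in CypD-/- mice and none is lower. There 595 of all 3113 symbols are listed as higher. The 62.1% of symbols listed as lower in WT mice is a share of listed symbols only. Of the 12 Kupffer cell markers, 3 are in no table, so 8 of 12 has another base. Of 12 hepatocyte markers, 7 are lower and 1 is higher in WT, and 5 are lower and 2 higher in CypD-/- mice. Which cells carried the RNA of the 10 genes was not tested.

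Relatives of the 10 genes did not move as 1 group. Of 17 S100 genes, 4 are listed as higher and 3 as lower after LPS in WT, and 3 as higher and 1 as lower in CypD-/- mice. These counts include *S100a8* and *S100a9*, which are listed as higher in both genotypes. *S100a11* was 47.0-fold higher in WT mice, and its level after LPS was 5.09-fold lower in CypD-/- than in WT mice. *S100a10*, the partner of annexin A2, was 1.97-fold higher in WT after LPS and 2.29-fold higher in CypD-/- control than in WT control mice. *S100a6* was 7.41-fold higher in CypD-/- mice. *S100a1* was 2.70-fold lower in WT and 1.94-fold lower in CypD-/- mice, and *S100a13* and *S100a16* were 2.73- and 2.80-fold lower in WT mice. *S100a16* was also 2.30-fold higher in CypD-/- LPS than in WT LPS mice. The calprotectin genes are thus the S100 genes listed as higher in both genotypes.

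In the Ly6 family, *Ly6a* (Sca-1) was 4.86-fold higher in WT and 4.42-fold higher in CypD-/- mice, and *Ly6e* 1.54-fold higher in WT mice. Of the Ms4a family only *Ms4a6d*, a gene of macrophages, is listed beside *Ms4a4a*, 5.89-fold higher in WT mice. *Wfdc2*, which like *Slpi* encodes a protein with WAP domains, was 7.28-fold higher in WT and 10.3-fold higher in CypD-/- mice, and *Wfdc21* 1.88-fold higher in CypD-/- mice. The other 15 of the 17 relatives searched for are in no table.

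Of 20 ligands that draw or feed neutrophils and monocytes, 8 are listed as higher after LPS in WT and 5 in CypD-/- mice, and none as lower. The finite folds ran from 4.17 (*Csf1*) to 197 (*Cxcl5*) in WT and from 1.76 (*C3*) to 217 (*Cxcl1*) in CypD-/- mice. *Csf3*, the growth factor of neutrophils, was 157-fold higher in WT mice and has an infinite fold in CypD-/- mice. The neutrophil chemokine genes *Cxcl5* and *Cxcl2* (68.4-fold) are listed as higher in WT mice and are not listed in CypD-/- mice, while *Cxcl1* was 31.7- and 217-fold higher. Between the LPS groups *Cxcl5*, *Cxcl2* and *Cxcl1* are not listed. *Ccl2*, which draws monocytes, was 107- and 62.7-fold higher, and 1.73-fold lower in CypD-/- LPS than in WT LPS mice. Of 14 adhesion genes of leukocyte entry, 4 are listed as higher in WT mice, *Sele* (41.5-fold), *Icam1* (13.7-fold), *Selp* (9.55-fold) and *Vcam1* (2.96-fold). In CypD-/- mice *Icam1* (19.4-fold) and *Itgam* are higher and *Itgb1* is 1.62-fold lower.

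**Figure D4:**
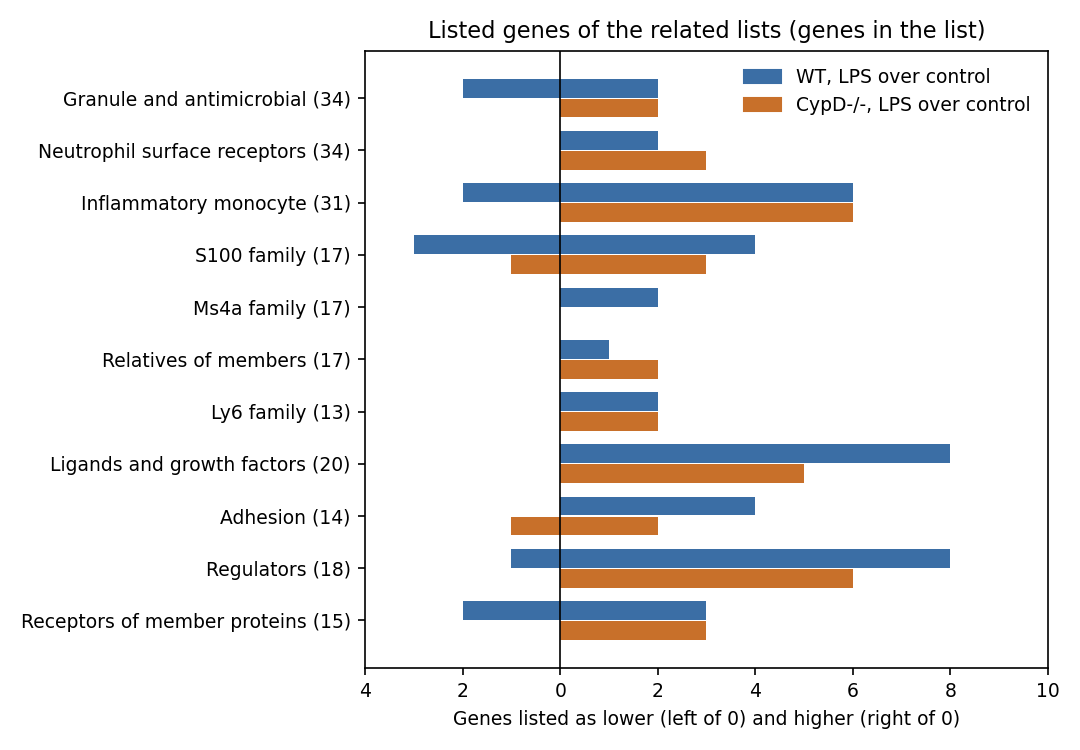
Number of genes listed as higher (right of 0) and lower (left of 0) after LPS in WT and CypD-/- mice for 11 related gene lists, with the number of genes in each list in parentheses. The ligands had 8 genes listed as higher in WT and 5 in CypD-/- mice, whereas the 34 further granule genes had 2 in each. The S100, Ms4a and Ly6 lists include the described genes that belong to these families. Some genes stand in several lists.

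Of 18 regulators of these genes, 8 are listed as higher and 1 as lower after LPS in WT, and 6 as higher in CypD-/- mice. *Socs3*, the feedback inhibitor of STAT3, was 15.3- and 14.5-fold higher, *Stat3* 5.70- and 3.54-fold, *Hif1a* 5.76- and 2.92-fold and *Irf8* 6.0-fold in WT mice. *Cebpa* was 2.07-fold lower in WT mice and *Cebpb* 1.96- and 2.34-fold higher. Between the LPS groups, 4 of the 18 are listed as lower in CypD-/- mice, against 11.8% of all symbols, and none as higher: *Stat3* 1.99-fold, *Rela* 1.86-fold, *Nfkbia* 1.83-fold and *Hif1a* 1.81-fold. Among 15 receptors and partners of the encoded proteins, 3 are listed as higher in each genotype, *Cd14*, *Tlr2* (7.12- and 8.48-fold) and *Myd88* (4.50- and 4.01-fold). *Bsg*, which encodes basigin, was 2.19-fold lower in WT mice and 1.90-fold higher in CypD-/- LPS than in WT LPS mice, and *Cd36*, the scavenger receptor, was 3.18-fold lower in CypD-/- LPS than in WT LPS mice.

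The genes most like each of the 10 were sought among those listed in exactly the same tables, by the distance between their log2 folds. These distances compare 4 libraries only. For *Lcn2*, the nearest of 426 genes was *Cd14* (distance 0.44), followed by *Ccl2* (1.08) and *Cdkn1a* (1.19). *Slpi* had no close neighbour, *Cxcl10* at 1.54 being the nearest, followed by *Cxcl9* and *Cd14*. For *S100a8* the nearest of 717 genes was *Saa1* (0.42), which encodes serum amyloid A, followed by *A2m* and *Slc7a6*. *Chil3* was nearest to *Ankrd2* (0.05), *Ch25h* and *Syt12*. *S100a9* was nearest to *Ankrd2* (0.94), *Glipr2* and *Chil3*, and its partner *S100a8* was not among them.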

How the data were processed

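Liver RNA of WT and CypD-/- mice was sequenced by the authors on a SOLiD instrument after rRNA depletion. Reads were mapped by strand with CLC Genomics Workbench 6.0.1 to GRCm38 (similarity 80%, match limit 10) and compared by Kal's test between pairs of libraries. The deposited tables hold 1 score per gene, the authors' signed fold, and the authors' q-value. Both were used as deposited, since the tables hold nothing else. Normalization between libraries is not given in the sources used here. The tables hold no counts, so depth is unknown.

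The members and gene lists were chosen with earlier results of these data known. Named genes were the members, up to 4 listed genes per list with the largest folds, all listed S100, Ms4a and Ly6 genes and the 3 nearest patterns; other genes, including those named as not listed, were chosen after their values were seen. Folds without a finite value were taken as infinite and kept out of ratios and distances. In ranks by size of fold they were placed above all finite folds.

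Many folds are a constant times a ratio of small whole numbers. Constants searched over 0.5 to 2.2 after seeing the data, by a search checked on simulated data, wrote 256 of the folds above 4 in WT and 69 in CypD-/- mice as such ratios, and 2 times these constants wrote 253 and 70. The scale is therefore not settled, and no read numbers are given. Positions came from GENCODE M21, relatives from blastn 2.17.0+ (alignments of at least 75 bases), promoters from RefSeq (GRCm38.p6). Python 3.11.15, numpy 2.4.6 and scipy 1.17.1 were used. The alternatives were limits of 2-fold, 10-fold and a q-value of 0.001, letter case and finite folds only. Counts and the median were also taken without *Lcn2* and *Slpi*, and the mean over all members was set beside the median.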

Additional observations from a re-analysis of the deposited data

How the results depend on the processing

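After LPS, the count of genes listed as higher was 7 of 10 in each genotype. It stayed at 7 with limits of 2-fold or 10-fold and with letter case matched. With a q-value of at most 0.001 it was 5 in WT and 6 in CypD-/- mice, and with finite folds alone it was 6 in each. Without *Lcn2* and *Slpi*, left out after seeing the data, it was 5 in each. Between the LPS groups, a limit of 10-fold left 0 of the 2 genes, because both folds lie below it; no other setting changed that count. The median log2 ratio of CypD-/- to WT fold over the members was 0.69, also without *Lcn2* and *Slpi*, and the mean was 0.57. A route through the comparison of the control groups gave no value, because it lists none of the 10 genes. No paired analysis was possible because each group is 1 pooled library.

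With 1 pooled library per group, variation between mice was not measured, and the depth behind each fold is unknown.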
